A study of Mus musculus with 26 samples.

Results

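Mouse muscular dystrophy models were profiled on 2-channel arrays, and the account here concerns the 2 groups that lack dysferlin, dysf and sjl, against the 2 wild type groups, bl6 and bl10. These 4 groups were set by their labels, with earlier results of these data known. They hold 8 of the 26 RNA samples of the series, 4 dysferlin-deficient and 4 wild type. There were 13 groups of 2 RNA samples. Each RNA sample appears on 2 arrays with its channel changed between them, and the 26 arrays form a closed loop without a common reference. The remaining groups are mdx and mdx3cv, known as lines without dystrophin, then sgca, sgcb, sgcb2, sgcd and a further line without a sarcoglycan that is only pooled here, then sspn, without sarcospan, and hDMD, a line with the human DMD gene. No treatment is named for any group, and the alleles carried by dysf and sjl, the tissue, the age, the sex, the background strain and any pooling of animals are not given in the sources used here. The labels give each group by a short name only, and what each line lacks is background knowledge. SJL is a commonly kept inbred strain with a natural splice mutation of Dysf, so strain and dysferlin loss cannot be told apart in that group. Whether the RNA samples within a group were drawn from separate mice is not stated, so the spread behind every p-value may be technical. For each gene that spread was estimated over all 26 arrays, so it is not the spread of these 4 groups alone.

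Dysferlin is a large membrane protein of the muscle fibre with several calcium-binding C2 domains. When the plasma membrane is torn, calcium enters and dysferlin takes part in the fusion of vesicles that patch the opening, together with annexins, caveolin 3, calpains and SNARE proteins. Loss of dysferlin causes a slowly progressive dystrophy in which inflammatory cells and, later, fat and connective tissue enter the muscle. Arrays of whole tissue cannot tell fewer cells of a type from less RNA per cell.

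The deposited ratios held 6540 named genes. Values below are log2 differences from a single fit of all 26 arrays with a term for each group and for the dye, in which a difference of 1 is a doubling; the error is the standard error of the fit. A gene was called when its limma p, adjusted by the Benjamini-Hochberg method over all 6540 genes, was under 0.05. Values of single samples come from the same kind of fit with a term for each of the 8 samples and are given relative to the mean of the 4 wild type samples. Only 1 array set a dysferlin-deficient sample directly against a wild type one, sjl sample 2 against bl6 sample 1, and 8 arrays held a dysferlin-deficient sample, so most of each difference was carried through other groups of the loop. The samples of a pair differed by a median of 0.38 over all genes in dysf, 0.63 in sjl, 0.58 in bl6 and 0.47 in bl10. As ratios hold no absolute level, the tissue could not be checked against its defining markers. The direction of the ratio was taken from the missing genes: read as channel 1 over channel 2, the missing gene was lower in 7 of 9 lines tested, with an unadjusted p under 0.05 in 3, against 2 and 0 in the other direction. The 2 pairs that were not lower were Dysf in dysf and Dysf in sjl. Dysf, the gene of dysferlin, stood at 0.72 and 0.73 in the dysf samples and at 2.14 and -0.29 in the sjl samples, against -0.36, -0.52, 0.13 and 0.75 in the wild type samples. The groups overlapped. Against wild type the line dysf had 0.55 ± 0.62 (limma adjusted p = 0.82) and the line sjl 0.76 ± 0.50 (limma adjusted p = 0.729), so the array data do not check these labels. Without sjl sample 1 the sjl value turned to -0.37.

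In the comparison of both lines with wild type 3 genes were called, all higher: S100a9, a calcium-binding alarmin protein of neutrophils and monocytes, Csnk1e, the casein kinase 1 epsilon that phosphorylates clock and Wnt proteins, and Ctse, an aspartic protease of the endosomes of antigen-presenting and other cells. These 3 genes were 0.0459% of the 6540 tested, and no gene was called lower. The unadjusted p was under 0.05 for 471 higher genes (7.2%) and 103 lower genes (1.57%). In 161 genes (2.46%) all 4 dysferlin-deficient samples lay above all 4 wild type samples, and in 49 genes (0.749%) they lay below. The median difference over all genes was 0.116, and changes are read beside that shift. Centring each array on its median moved that median to 0.001 and the unadjusted counts to 306 higher and 197 lower, and scaling the arrays alike as well gave 234 and 127. The number of called genes ran from 2 to 16 when single samples were left out of the fit: it was 16 without bl6 sample 2, 9 without hDMD sample 2, 7 without dysf sample 1, hDMD sample 1 or sgca sample 1, 6 without sjl sample 1 or mdx sample 2, and 5 without sjl sample 2 or either sgcb sample. With arrays scaled to the same spread it was 1, the gene Csnk1e.

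S100a9 reached 5.33 and 5.32 in the dysf samples and 2.29 and 1.57 in the sjl samples. The wild type samples lay at -0.96 and 0.88 in bl6 and at -0.22 and 0.30 in bl10. All 4 dysferlin-deficient samples were above every wild type sample, with dysf well above sjl. The difference of both lines from wild type was 3.75 ± 0.49, a 13.5-fold change (limma adjusted p = 0.000733), and the 2 rows of the gene gave 3.45 and 4.05. With arrays scaled to the same spread the value was 2.95 and the call was lost (adjusted p = 0.121), while it held without each of the 26 samples in turn. On the array that set sjl sample 2 directly against bl6 sample 1, the log2 ratio of S100a9 was 2.09.

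Csnk1e was the most even of the called genes. Its values were 2.47 and 2.67 in dysf and 3.03 and 3.04 in sjl. In wild type they were 0.34 and 0.22 for bl6 and -0.74 and 0.18 for bl10, so the groups did not overlap and the lines lay close together. The difference was 2.68 ± 0.35, or 6.41-fold (limma adjusted p = 0.000733), and the call held without each of the 26 samples and under all 10 other settings tried. Among those settings, reading the values as log2 rescales them all alike and cannot change a p-value. Row medians equal row means for a gene with 2 rows, so neither setting tests the call. The direct array gave 2.32. Csnk1e rose in each line on its own, by 2.42 ± 0.47 in dysf (limma adjusted p = 0.0435) and by 2.94 ± 0.38 in sjl (limma adjusted p = 0.00111). These comparisons use the same wild type samples. The call in dysf held in only 6 of the 26 fits without a sample, namely without mdx3cv sample 1, sgca sample 1, sgcb sample 2, sjl sample 2 or either sspn sample. In the other 20 fits the adjusted p lay between 0.0502 and 0.582, the latter without a sample of the line that is only pooled. The dysf call was also lost with arrays centred (adjusted p = 0.0657), with arrays scaled alike (0.241), over genes whose rows correlate (0.0591) and with bl6 alone as the control (0.161). Of the 17 measured genes of the circadian clock list, Csnk1e alone passed an unadjusted p under 0.05 in the comparison of both lines with wild type. Of all genes 7.2% were higher and 1.57% lower past it, and the list's median was 0.25.

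Ctse, cathepsin E, stood at 3.21 and 3.55 in dysf, at 1.24 and 1.63 in sjl, at 0.34 and 0.03 in bl6 and at -0.31 and -0.06 in bl10. As with S100a9, the samples of the lines lay above all wild type samples and those of dysf lay highest. The difference of both lines was 2.35 ± 0.38, or 5.09-fold (limma adjusted p = 0.00964). The adjusted p rose to between 0.0509 and 0.168 in 10 of the 26 fits without a sample, namely without bl10 sample 1 or 2, bl6 sample 1, dysf sample 2, mdx3cv sample 1 or 2, sgca sample 2, sspn sample 1 or either sample of the line that is only pooled. With arrays scaled to the same spread it was 0.225, and with bl6 alone as the control 0.0604.

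**Figure D1:**
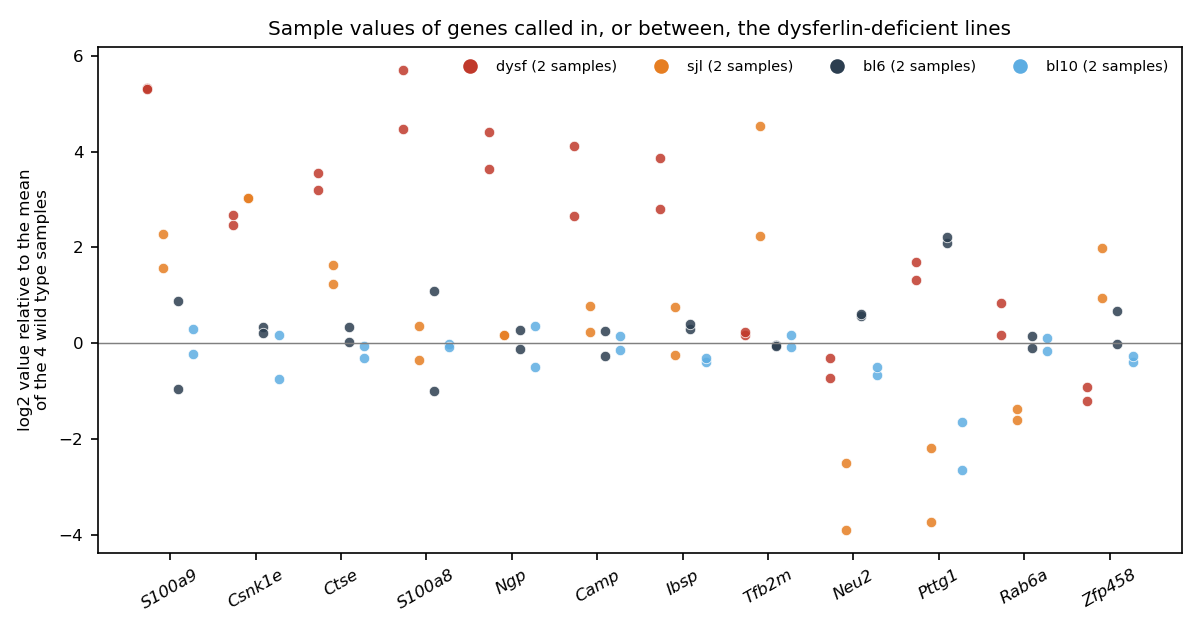
Log2 values of 12 genes in the 2 samples each of dysf, sjl, bl6 and bl10 (y axis, relative to the mean of the 4 wild type samples, each point 1 RNA sample). S100a9, Csnk1e and Ctse lie above wild type in all 4 dysferlin-deficient samples, S100a8, Ngp, Camp and Ibsp in the dysf samples, and Tfb2m in the sjl samples; Pttg1 differs between bl6 and bl10.

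The dysf line alone had 7 called genes, all higher (0.107% of the genes tested): S100a9, S100a8, Ngp, Camp, Ibsp, Ctse and Csnk1e. No gene was called lower in dysf, where the unadjusted p was under 0.05 for 438 higher (6.7%) and 115 lower genes (1.76%). Among them S100a9, S100a8, Ngp and Camp are genes of neutrophils and their marrow precursors. S100a8 and S100a9 encode the subunits of calprotectin, a calcium- and zinc-binding complex of the neutrophil cytosol, Ngp encodes neutrophilic granule protein, and Camp encodes the antimicrobial cathelicidin of the secondary granules. S100a8 was at 5.71 and 4.47 in the dysf samples, 0.35 and -0.35 in sjl, -0.99 and 1.10 in bl6 and -0.02 and -0.08 in bl10. Both dysf samples were far above the sjl and wild type samples, and the sjl samples lay within the wild type range. S100a8 rose by 5.27 ± 0.76 in dysf, 38.5-fold, and S100a9 by 5.36 ± 0.65, 41.2-fold (limma adjusted p = 0.00279 and 0.000425). Ngp stood at 3.64 and 4.42 in dysf, 0.17 and 0.18 in sjl, 0.27 and -0.12 in bl6, and -0.49 and 0.35 in bl10, and its rise in dysf was 3.86 ± 0.60 (limma adjusted p = 0.00474). Camp stood at 2.65 and 4.13 in dysf and at 0.78 and 0.23 in sjl, with 0.25, -0.26, -0.14 and 0.15 in wild type. Its rise in dysf was 3.25 ± 0.52 (limma adjusted p = 0.00504). High levels of these genes were not particular to dysf among the lines of the series. Relative to wild type, S100a8 stood at 5.17 in sgcb, 3.98 in sgca and 3.36 in sspn, Ngp at 4.63, 3.33 and 3.38, and Camp at 2.99, 1.64 and 2.61.

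The starts of these 4 genes are shown because they moved together in dysf. Each line is the 250 bases before the annotated start in RefSeq on GRCm38.p6, 5′ to 3′ on the gene's strand. S100a8 is read from chr3:90668821-90669070 on the plus strand, S100a9 from chr3:90695722-90695971 on the minus strand, Ngp from chr9:110419558-110419807 on the plus strand and Camp from chr9:109849457-109849706 on the minus strand. Capitals mark matches on either strand to TTGCNNAA, a short form of the C/EBP motif (TTNNGCAA on the other strand), or to GAGGAA, the core of the PU.1 motif (TTCCTC on the other strand). Both factors act in myeloid cells. No marked matches overlapped.
S100a8: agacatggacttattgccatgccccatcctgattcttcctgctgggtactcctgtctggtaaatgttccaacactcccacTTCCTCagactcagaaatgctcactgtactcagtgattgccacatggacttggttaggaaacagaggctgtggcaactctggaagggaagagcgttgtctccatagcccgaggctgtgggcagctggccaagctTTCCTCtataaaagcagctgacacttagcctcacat
S100a9: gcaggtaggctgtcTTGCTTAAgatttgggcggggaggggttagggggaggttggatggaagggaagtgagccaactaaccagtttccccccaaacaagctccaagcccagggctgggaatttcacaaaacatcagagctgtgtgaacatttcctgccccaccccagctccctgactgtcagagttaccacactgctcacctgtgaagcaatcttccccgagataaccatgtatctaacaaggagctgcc
Ngp: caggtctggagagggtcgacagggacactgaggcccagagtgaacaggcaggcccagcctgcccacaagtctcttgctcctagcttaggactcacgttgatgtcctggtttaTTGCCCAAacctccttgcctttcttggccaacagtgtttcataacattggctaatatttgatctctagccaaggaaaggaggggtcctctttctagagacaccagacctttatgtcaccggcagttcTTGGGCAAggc
Camp: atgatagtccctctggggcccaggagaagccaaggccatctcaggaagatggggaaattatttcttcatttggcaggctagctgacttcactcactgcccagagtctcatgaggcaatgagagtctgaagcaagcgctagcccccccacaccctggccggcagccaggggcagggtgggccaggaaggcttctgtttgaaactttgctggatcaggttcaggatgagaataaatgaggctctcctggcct
S100a8 holds 2 matches to GAGGAA, S100a9 holds 1 match to TTGCNNAA, Ngp holds 2 and Camp holds 0 of either. Among 32851 promoter windows of this length, 9.56% hold TTGCNNAA and 23.3% hold GAGGAA, so a match is a description of these letters and not a bound site.

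The neutrophil list as a whole had 15 measured genes. In the comparison of both lines, 14 of 15 lay above 0, 7 were higher at an unadjusted p under 0.05 (46.7% of the list, beside 7.2% of all genes) and the median was 0.76, beside 0.116 for all genes. In dysf alone the median was 0.85 with 4 genes called, and in sjl 0.36 with 0 called and 2 past the unadjusted p. Below the 4 called genes, Ltf, the lactoferrin of secondary granules, stood at 1.60 in dysf and -0.06 in sjl, Mmp9, gelatinase B, at 1.51 and 0.51, and Mpo, myeloperoxidase of primary granules, at 1.14 and 0.57. Elane and Mmp8, further granule enzymes, were near 0 in both lines, at 0.17 and 0.20 in dysf and -0.10 and -0.22 in sjl. Ibsp, bone sialoprotein of mineralised matrix, also rose in dysf, with 2.80 and 3.88 in the dysf samples against -0.24 and 0.76 in sjl and 0.30, 0.41, -0.40 and -0.31 in wild type (3.34 ± 0.55, limma adjusted p = 0.00662). Relative to wild type Ibsp also stood at 3.57 in sspn, 2.82 in sgcb and 2.54 in sgca. In the list of bone, cartilage and tendon genes the median was 0.92 in dysf, with 7 of 19 genes higher at an unadjusted p under 0.05 (beside 6.7% of all genes), and 0.10 in sjl with 0. Tnmd, tenomodulin of tendon, stood at 1.87 in dysf and 0.59 in sjl, and Chad, chondroadherin of cartilage, at 1.53 and -0.38. These skeletal tissue genes moved with the neutrophil genes in the dysf samples, and their part in that result was not tested. The count of 7 called genes in dysf was 1 without bl10 sample 2, 2 without dysf sample 2 or a sample of the line that is only pooled, 3 without the other sample of that line, 15 without sgcb sample 1 and 17 without dysf sample 1. A fit without 1 sample of a pair assumes that the lone sample varies like the other groups. Ngp and Ctse lost their calls in dysf without bl10 sample 2, dysf sample 2 or either sample of the line that is only pooled, up to an adjusted p of 0.206 for Ngp and 0.097 for Ctse. Ibsp lost it without these and without bl6 sample 1 or sgcd sample 2, up to 0.345. S100a8 lost it without bl10 sample 2 or a sample of the line that is only pooled, up to 0.057, and S100a9 kept it in all 26 fits. Camp lost it without bl10 sample 2, dysf sample 2 or either sample of the line that is only pooled, up to 0.299.

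The sjl line had 16 called genes, 13 higher (0.199%) and 3 lower (0.0459%). At an unadjusted p under 0.05 there were 489 higher (7.48%) and 141 lower genes (2.16%). Tfb2m, which encodes a transcription factor of mitochondrial DNA, rose most, by 3.48 ± 0.47 (limma adjusted p = 0.00111). It stood at 2.23 and 4.54 in the sjl samples and between -0.09 and 0.23 in the 6 other samples, so sjl did not overlap the rest. On the direct array the log2 ratio of sjl sample 2 over bl6 sample 1 was 4.03. Sp1, a zinc finger factor of many promoters, stood at 2.87 and 2.29 in sjl against -0.56 to 0.55 in the 6 other samples, and rose by 2.43 ± 0.41 (limma adjusted p = 0.0195). Nfyb, a subunit of the CCAAT-binding factor NF-Y, rose by 2.12, and Scoc, a Golgi and autophagy protein, by 2.21 (limma adjusted p = 0.0303 and 0.0382). In both genes the 2 sjl samples were the highest of the 8. Higher values of Sp1, Nfyb and Scoc were not particular to sjl in the series. Relative to wild type, the named dystrophin- and sarcoglycan-deficient lines ranged from 0.43 to 2.26 for Sp1. They ranged from 0.47 to 1.58 for Nfyb and from 0.30 to 1.61 for Scoc.

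The 3 genes that fell in sjl were Neu2, Pttg1 and Rab6a. Neu2 encodes a cytosolic sialidase known for its place in myoblast differentiation. It stood at -2.50 and -3.90 in sjl, -0.72 and -0.31 in dysf, 0.56 and 0.61 in bl6 and -0.67 and -0.50 in bl10, and fell by 3.26 in sjl (log2; limma adjusted p = 0.0199). Rab6a, a Rab GTPase of Golgi traffic, stood at -1.38 and -1.60 in sjl and between -0.16 and 0.85 in the dysf and wild type samples. It fell by 1.57 in sjl (limma adjusted p = 0.0197). Low Rab6a was not particular to sjl in the series, as hDMD stood at -2.24 relative to wild type. Pttg1, securin, which holds separase until chromatids part, stood at -2.19 and -3.74 in sjl, 1.31 and 1.69 in dysf, 2.09 and 2.22 in bl6 and -1.65 and -2.66 in bl10. The sjl and bl10 samples overlapped, and bl6 and dysf lay high. The fall of 2.91 in sjl (limma adjusted p = 0.0359) became -5.10 with bl6 as the sole control and -0.73 with bl10 (adjusted p = 0.000428 and 0.999). Pttg1 was also the only gene called between the wild type groups, at -4.37 ± 0.62 in bl10 relative to bl6 (limma adjusted p = 0.00478, 0.0153% of the genes tested); that call was lost without any bl6 or bl10 sample or mdx3cv sample 2.

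The number of genes called in sjl depended on which wild type group served as control. Against bl6 alone 35 genes were higher (0.535%) and 5 lower (0.0765%), and against bl10 alone 2 were higher (0.0306%) and 0 lower, with 221 higher (3.38%) and 100 lower (1.53%) at an unadjusted p under 0.05. Both lines together had 7 called genes against bl6 (0.107%) and 3 against bl10 (0.0459%), all higher. For both lines S100a9 stood at 3.63 against bl6 and 3.88 against bl10 (limma adjusted p = 0.0184 and 0.00374). Csnk1e stood at 2.35 and 3.01 (limma adjusted p = 0.0266 and 0.00269) and Ctse at 2.18 and 2.51 (limma adjusted p = 0.0604 and 0.0307). For dysf 6 genes were called against bl6 (0.0917%) and 8 against bl10 (0.122%), all higher. The sjl count of 16 was 2 without bl10 sample 1, sgcb2 sample 1 or sgcd sample 2, 3 without mdx3cv sample 2 or sgcb2 sample 2, and 4 without bl6 sample 1, sgcd sample 1 or sjl sample 2. It was 5 without sspn sample 1 or a sample of the line that is only pooled, 6 without bl10 sample 2, sgca sample 2, sspn sample 2 or the other pooled-only sample, 7 without mdx3cv sample 1 and 8 without sjl sample 1. It was 25 without bl6 sample 2 and 26 without mdx sample 1. Csnk1e kept its call in sjl in all 26 of these fits and Tfb2m in 24, with an adjusted p of 0.0698 without bl6 sample 1 and 0.0608 without sjl sample 2. Sp1 lost its call without bl10 sample 1, sgca sample 2, sjl sample 1 or any sgcb2 or sgcd sample (adjusted p up to 0.223). Neu2 lost it without either bl10 sample, bl6 sample 1, mdx3cv sample 2, sgcb2 sample 1, sgcd sample 2, sjl sample 2, sspn sample 1 or a pooled-only sample (up to 0.232). Rab6a lost it without either bl10 or sgcb2 sample, bl6 sample 1, mdx3cv sample 2, sgcd sample 2, either sjl sample, sspn sample 2 or a pooled-only sample (up to 0.212). Pttg1 lost it without either bl10, sgcb2, sgcd or pooled-only sample, bl6 sample 1, mdx3cv sample 2 or sjl sample 2 (up to 0.276). Nfyb and Scoc were the least steady, with 11 and 10 of 26 fits that kept the call. Both lost it without any bl10, mdx3cv, sgcb2, sgcd, sjl or sspn sample, bl6 sample 1, sgca sample 2 or a pooled-only sample, and Scoc also without the other pooled-only sample (up to 0.174 and 0.332).

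**Figure D2:**
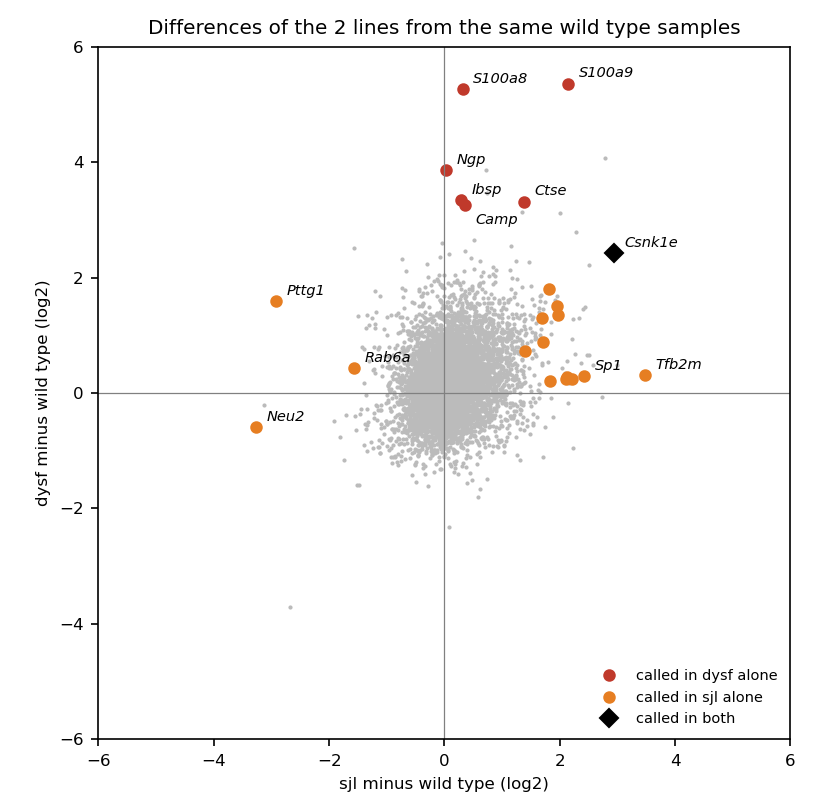
Log2 difference from wild type of 6540 genes in sjl (x axis) and dysf (y axis); both use the same 4 wild type samples. Filled points are called genes, 7 in dysf and 16 in sjl; S100a8, Ngp and Camp lie high on the dysf axis and near 0 on the sjl axis, and Csnk1e lies high on both.

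Set directly against each other, dysf and sjl differed in 10 called genes, 8 higher in dysf (0.122%) and 2 higher in sjl (0.0306%). S100a8, Ngp and Camp were higher in dysf, by 4.94 ± 0.79, 3.83 ± 0.63 and 2.89 ± 0.54 (limma adjusted p = 0.0121, 0.0121 and 0.0255). S100a9 missed the threshold at 3.22 ± 0.68 (limma adjusted p = 0.0598). Ibsp was higher in dysf by 3.05 ± 0.58, Pttg1 by 4.51 ± 0.72 and Rab6a by 2.00. Tfb2m was higher in sjl by 3.17 on the log2 scale, with -3.17 ± 0.60 as dysf minus sjl, and Zfp458, a zinc finger gene, had -2.47 ± 0.44, with -0.92 and -1.20 in the dysf samples and 1.99 and 0.94 in the sjl samples. Csnk1e did not pass, at -0.51 ± 0.49 (limma adjusted p = 0.742). The count of 10 called genes was 0 without dysf sample 2, hDMD sample 2, sgcb2 sample 2 or a sample of the line that is only pooled, 1 without sjl sample 2, sspn sample 1 or the other pooled-only sample, and 2 without sjl sample 1 or sgcb2 sample 1. It was 3 without bl10 sample 2, hDMD sample 1, either mdx3cv sample, sgcd sample 1 or sspn sample 2, and 32 without sgcb sample 1. Among the 26 fits Pttg1 kept its call in 19, S100a8 in 18, Ngp in 17, Zfp458 in 12, Rab6a in 11, Ibsp in 10 and Camp and Tfb2m in 9. The largest adjusted p lay between 0.323 and 0.567, without dysf sample 2 for Camp, Tfb2m, Ibsp, Rab6a and Ngp and without a pooled-only sample for S100a8, Pttg1 and Zfp458.

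Genes that act beside dysferlin in membrane repair were not called in either line, although most lay above wild type. Of the 31 measured, 26 were above 0 in the comparison of both lines and the median was 0.40, beside 0.116 for all genes. Among them 4 (12.9%, beside 7.2% of all genes) were higher at an unadjusted p under 0.05: Anxa7, Parva, Stx4a and Anxa1. Anxa7, an annexin that promotes membrane fusion, stood at 1.10 and 2.22 in dysf, 0.70 and 0.24 in sjl and between -0.21 and 0.16 in wild type. The dysferlin-deficient samples did not overlap the wild type ones, and the difference was 1.09 ± 0.31 (limma adjusted p = 0.282). The vesicle SNARE gene Vamp2 was the other member without overlap, with 0.34 to 0.52 in the lines and at most 0.22 in wild type. Parva, alpha-parvin of focal adhesions and a relative of the dysferlin-binding beta-parvin, stood at 0.93 ± 0.30, while Parvb itself stood at -0.10 ± 0.34 (limma adjusted p = 0.346 and 0.965). Stx4a, the plasma membrane SNARE syntaxin 4, stood at 0.88 and 1.00 in dysf, 1.27 and 0.36 in sjl, and -1.01, 0.39, -0.01 and 0.62 in wild type, which overlap. Anxa1, which binds dysferlin and dampens inflammation, had the widest values of the 4 genes past the unadjusted p. It stood at 3.50 in sjl sample 1 and -0.25 in sjl sample 2 (difference 1.66 ± 0.66, limma adjusted p = 0.467).

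The other annexins ranged in both lines together from -0.47 for Anxa10 to 0.67 for Anxa3, with -0.09 for Anxa11, 0.36 for Anxa8 and 0.39 for Anxa4. Anxa5, which forms lattices at wounds, stood at 0.45 and Anxa6, which forms caps there, at 0.52. The sjl samples of Anxa5 lay far apart, at 2.11 in sample 1 and -2.26 in sample 2. Cav3, the caveolin of muscle membranes, stood at 0.66 in dysf and -0.59 in sjl, and Cavin1, the coat protein of caveolae, at -0.38 and -0.23. The caveolins of other cells were not alike, with 0.49 and 0.62 for Cav1 and -0.20 and 1.23 for Cav2. The muscle calpain Capn3 stood at 0.89 and -0.70, and Capn1, calpain 1, which cleaves dysferlin after injury, at 1.17 and -0.71. Capns1, the small calpain subunit, stood at 1.74 and -0.30, and Capn2, calpain 2, at -0.11 and 0.21. Ahnak, a large protein that binds dysferlin, was at -0.08 and 0.30. Among the SNAREs and their calcium sensor, Snap23 stood at 0.50 and 0.76, Vamp2 at 0.56 and 0.43, Vamp3 at 0.00 and 0.12, Vamp8 at 0.55 and 0.24, and Syt7, synaptotagmin 7 of lysosome exocytosis, at 1.00 and -0.20. Ehd1 and Ehd3, which shape recycling endosomes, stood at -0.16 and -0.47 and at 0.15 and 0.21, Bin1, amphiphysin 2 of transverse tubules, at 1.17 and 0.18, and S100a11, an annexin partner, at 1.07 and 0.60, in each case dysf before sjl. Set against each other, dysf was higher than sjl at an unadjusted p under 0.05 in 8 of the 31 genes and lower in 1 (5.55% and 4.65% of all genes), and 0 were called. Without sjl sample 1 the median of the list in sjl turned from 0.21 to -0.24, and without sjl sample 2 it was 0.71.

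**Figure D3:**
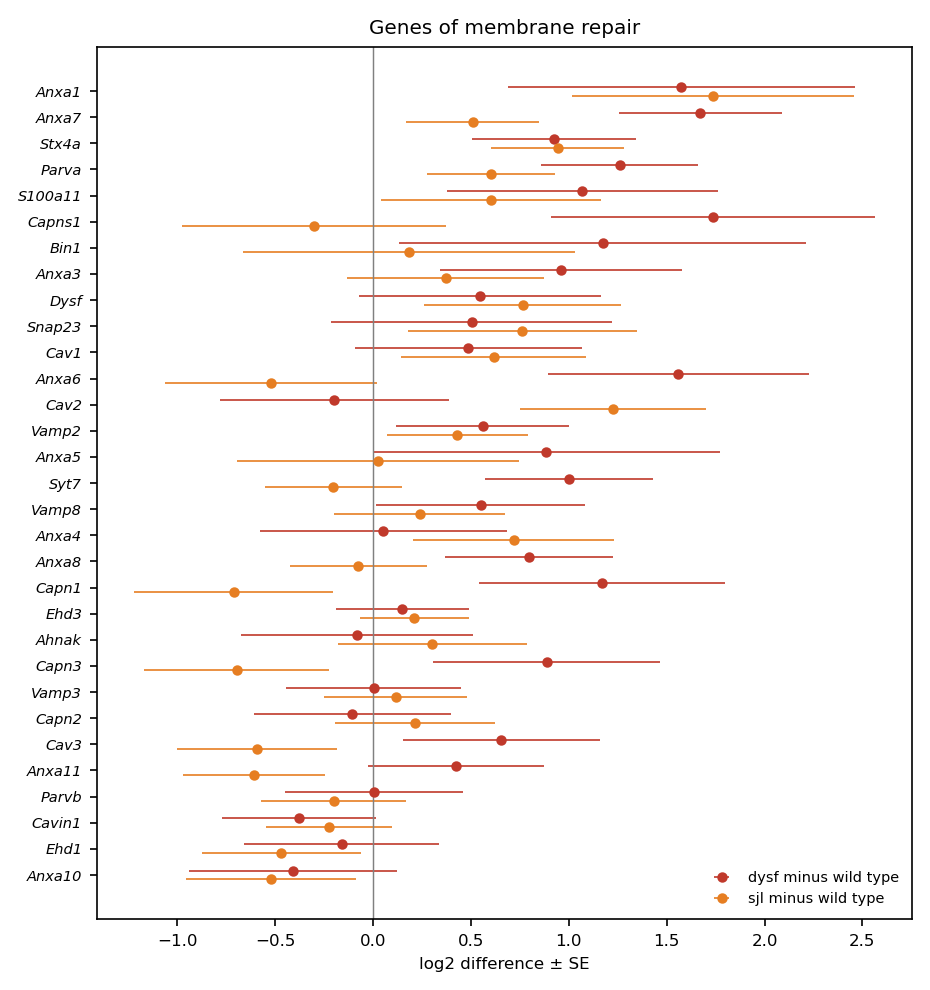
Log2 difference from wild type with its standard error (x axis) for the 31 measured genes of membrane repair (y axis, ordered by the value of both lines), in dysf and sjl, 2 samples a line against 4 wild type samples. Anxa1, Anxa7, Stx4a and Parva lie to the right of 0 in both lines, Dysf is not lower in either, and Capn1, Capn3, Cav3 and Anxa6 lie on opposite sides of 0.

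Genes of the extracellular matrix were the longest list with many members past the unadjusted threshold. Of 56 measured, 45 lay above 0, 25 (44.6%) were higher and 1 lower at an unadjusted p under 0.05, beside 7.2% and 1.57% of all genes, and the median was 0.64, though 0 passed the adjusted threshold in the comparison of both lines. Lamb1, the laminin beta 1 chain of basement membranes, had the smallest p, with 1.18 and 1.30 in dysf, 1.76 and 1.28 in sjl, and -1.23, 0.00, 0.59 and 0.63 in wild type. It lay above every wild type sample in all 4 samples, at 1.5 ± 0.31 (limma adjusted p = 0.0945), and was called in sjl at 1.69 (limma adjusted p = 0.0372). That call held in 9 of the 26 fits without a sample and lost with arrays centred or scaled alike and with bl10 alone as the control (adjusted p = 0.0616, 0.355 and 0.786). Col14a1, a collagen of fibril surfaces, stood at 1.62 ± 0.43, Bgn, the proteoglycan biglycan, at 1.40 ± 0.40, and Col4a2, a chain of basement membrane collagen, at 1.22 ± 0.35 (limma adjusted p = 0.244, 0.282 and 0.282). Bgn stood at 0.98 and 1.52 in dysf and 2.24 and 0.87 in sjl, against -0.87 to 0.63 in wild type, without overlap. The fibrillar collagen genes differed in pattern between the lines. Col3a1 stood at 1.61 in dysf and 1.91 in sjl, whereas Col1a1 stood at 3.42 in dysf, with 2.85 and 3.99, and at 0.30 in sjl, with 1.90 in sample 1 and -1.55 in sample 2. Lamc1, the laminin gamma 1 chain, was the member on the lower side, at -1.0 ± 0.40 (limma adjusted p = 0.459). In dysf the list's median was 0.83 with 25 genes past the unadjusted p, and in sjl 0.37 with 11 past it. Of the 14 fibroblast markers 13 lay above 0 and 5 passed the unadjusted p, among them Fap, fibroblast activation protein, at 1.2, and Dpt, dermatopontin, at 1.08 (limma adjusted p = 0.337 and 0.429). With arrays scaled alike the matrix count fell to 13 with a median of 0.47, and without sjl sample 1 it was 11 of 56 with a median of 0.49.

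No macrophage gene was called, and the list's level in sjl differed widely between its 2 samples. Of 41 measured, 32 lay above 0 in the comparison of both lines, 8 were higher at an unadjusted p under 0.05 (19.5%, beside 7.2% of all genes) and the median was 0.68. The median was 0.25 in dysf, with 1 gene past the unadjusted p, and 0.78 in sjl, with 10 higher and 1 lower. The difference of dysf and sjl had a median of -0.44 over the list, with 0 higher and 2 lower at an unadjusted p under 0.05 and 0 called. Clec7a, the beta-glucan receptor dectin 1, had the smallest p, with 2.58 and 1.71 in dysf, 3.17 and 2.06 in sjl, and -1.51, -0.26, 1.5 and 0.27 in wild type, which did not overlap (2.65 ± 0.65, limma adjusted p = 0.183). Ptprc, the leukocyte antigen CD45, stood at 1.69 and 1.80 in dysf and at 3.90 and 1.24 in sjl, against at most 1.72 in wild type, with overlap, and Mrc1, the mannose receptor of tissue macrophages, at 0.74, 0.45, 2.48 and 1.46. Itgb2, the leukocyte integrin beta 2 chain, stood at 4.29 in sjl sample 1 and 0.46 in sjl sample 2, and Cd68, a lysosomal protein of macrophages, at 4.03 and -0.27. The mean over the 41 genes was 0.44 and 0.37 in the dysf samples, 1.83 and -0.28 in the sjl samples, -1.23 and 0.12 in bl6 and 0.45 and 0.66 in bl10. Only sjl sample 1 thus lay above all wild type samples, and bl6 sample 1 lay lowest. Without sjl sample 1 the median of both lines was 0.11 with 3 genes past the unadjusted p, without sjl sample 2 it was 0.96 with 13, and without bl6 sample 1 it was 0.60 with 3. Against bl10 alone the median was 0.27 with 1 gene higher and 1 lower past the unadjusted p (3.2% and 0.933% of all genes). With arrays scaled alike the median in dysf turned to -0.02.

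No fat cell gene was called in the comparison of both lines. Of 21 measured adipocyte genes 19 lay above 0, 8 (38.1%, beside 7.2% of all genes) were higher at an unadjusted p under 0.05, and the median was 0.78, with 0.77 in dysf and 0.68 in sjl. The smallest adjusted p was 0.311. The mean over the 21 genes was 0.85 and 1.19 in the dysf samples, 0.35 and 0.85 in the sjl samples, -0.85 and 0.51 in bl6 and -0.05 and 0.39 in bl10. Both dysf samples and sjl sample 2 lay above all wild type samples, sjl sample 1 lay within their range, and bl6 sample 1 lay lowest. Pparg, the master regulator of fat cells, stood at 0.74 and 1.54 in dysf, 1.02 and 1.78 in sjl, -1.11 and -0.48 in bl6 and 0.14 and 1.45 in bl10 (1.2 ± 0.36). Ucp1, the uncoupling protein of brown fat mitochondria, stood at 2.94 and 5.16 in dysf, 1.48 and 3.35 in sjl, -1.62 and 1.49 in bl6 and -0.69 and 0.82 in bl10 (3.43 ± 1.06). Its 4 dysferlin-deficient values overlapped the wild type ones only through sjl sample 1 and bl6 sample 2, and the 2 rows of the gene gave 2.16 and 4.69. Lipe, hormone-sensitive lipase, stood at 1.16 ± 0.37, Fabp4, the fatty acid carrier of fat cells, at 1.85 ± 0.75, and Cidea, a lipid droplet protein of brown fat, at 2.36 ± 0.96. In Fabp4 and Cidea, bl6 sample 1 was far below the other wild type samples, at -2.94 and -3.39. Without bl6 sample 1, 0 of the 21 genes passed the unadjusted p and the median was 0.36, and without sjl sample 2 the values were 3 and 0.67.

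No contractile gene of fast fibres was called, and the list's medians had opposite signs in the lines. The median of the 11 measured genes was 0.79 in dysf, with 9 above 0, and -0.52 in sjl, with 1 above 0, and -0.03 for both together. The mean over the list was 0.68 and 1.0 in the dysf samples and -0.45 and -1.0 in the sjl samples, against -0.05 and 0.65 in bl6 and -0.13 and -0.47 in bl10. The dysf samples thus lay just above the highest wild type sample, and sjl sample 1 lay within the wild type range. In the direct comparison 10 of 11 lay higher in dysf, 6 of them at an unadjusted p under 0.05 (beside 5.55% of all genes) and 0 called, and the median was 1.54. Actn3, the alpha-actinin of fast fibres, stood at 1.80 and 3.55 in dysf and -0.62 and -2.25 in sjl, against -0.83 to 0.72 in wild type. Tpm1, a tropomyosin, stood at 0.80 in dysf and -1.13 in sjl, and Myoz1, a Z-disc protein of fast fibres, at 0.65 and -0.87. Members without that pattern were Tnni2 and Tnnc2, subunits of fast troponin, at -0.15 and -0.33 in dysf and -0.45 and -0.31 in sjl, and Casq1, the fast calsequestrin, at 1.58 and 0.04. Both signs of the list's medians held with arrays centred or scaled alike and without each of the 8 samples. The 12 slow fibre genes had medians of 0.54 and 0.30. In the comparison of both lines 3 of them were higher past the unadjusted p, beside 7.2% of all genes. These were Atp2a2, the slow calcium pump, at 1.59 ± 0.43, Tnni1, slow troponin I, at 2.56 ± 0.74, and Csrp3, a muscle LIM protein, at 1.26 ± 0.42 (limma adjusted p = 0.262, 0.285 and 0.352). The wild type groups differed in these genes too: the slow fibre list had a median of 1.53 in bl10 relative to bl6, with 8 of 12 higher and 1 lower at an unadjusted p under 0.05 and 0 called (5.43% and 2.55% of all genes). Against bl6 the lines had a median of 1.30, and against bl10 0.24. Of the dystrophin complex, Lama2, the laminin alpha 2 chain of the fibre's basement membrane, was the sole member of 15 past the unadjusted p. That count is near the 7.2% of all genes that were higher past it. Lama2 stood at 1.02 and 1.07 in dysf, 0.99 and 1.01 in sjl and at most 0.56 in wild type (0.95 ± 0.27, limma adjusted p = 0.282). Dmd stood at -0.34 ± 0.29 and Utrn, utrophin, at -0.26 ± 0.38.

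Gadd45a, a growth arrest gene that also rises in denervated muscle, was the nearest to the threshold in the comparison of both lines. It stood at 1.59 and 1.74 in dysf and 1.84 and 1.21 in sjl, against -1.52, 0.41, 0.60 and 0.51 in wild type, without overlap (1.80 ± 0.34, limma adjusted p = 0.0562), and was called in sjl (1.81, limma adjusted p = 0.0452). That call held in 9 of the 26 fits without a sample and lost with arrays centred or scaled alike and with bl10 alone as the control (adjusted p = 0.0643, 0.131 and 0.722). Both Gadd45a and Lamb1 lost the sjl call without either sample of bl10, mdx3cv, sgcb2, sgcd, sjl, sspn or the line that is only pooled, and without bl6 sample 1 or sgca sample 2. Gadd45a also lost it without dysf sample 2 and Lamb1 without hDMD sample 2 (adjusted p up to 0.317 and 0.244). H19, an imprinted RNA of immature muscle, stood at 3.47 in dysf and 0.74 in sjl, and Cdkn1c, a cell cycle inhibitor of differentiating myoblasts, at 1.80 and 0.42. Of the 34 genes of the regeneration list 6 (17.6%, beside 7.2% of all genes) were higher and 0 lower at an unadjusted p under 0.05, with a median of 0.32. Satellite cell markers had 0 of 17 past it, with a median of -0.03. Of 48 chemokine and cytokine genes 6 (12.5%, beside the same 7.2%) were higher and 0 lower. The smallest p was that of Ccl11, the eosinophil chemokine eotaxin, at 1.40 ± 0.36 (limma adjusted p = 0.217). The mast cell list of 10 genes also holds Ms4a1, a B cell marker, and Prg2 and Epx of eosinophil granules. In that list 8 lay above 0, 2 were higher and 0 lower at an unadjusted p under 0.05, and the median was 0.25. These 2 were Cma1, a mast cell chymase, at 0.98 ± 0.37 (limma adjusted p = 0.415), and Cpa3, a mast cell carboxypeptidase, with 0.56, 0.74, 0.94 and 0.74 in the samples of the lines and at most 0.39 in wild type (0.87 ± 0.29, limma adjusted p = 0.351). The sex-linked list had 0 of 7 genes past the unadjusted p, and the 40 ribosomal protein genes had a median of -0.01.

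On the lower side, Cish, a feedback inhibitor of cytokine and growth hormone signalling, had the lowest value. It stood at -3.38 and -3.61 in dysf and -2.36 and -2.22 in sjl, against 1.95, -0.50, -0.87 and -0.58 in wild type. All 4 lay below all wild type samples, and the difference was -3.20 ± 0.67 (limma adjusted p = 0.106, the smallest of any lower gene). Low Cish was not particular to these lines in the series. Relative to wild type it ranged from -3.51 to -1.83 in the named dystrophin- and sarcoglycan-deficient lines and stood at -2.93 in sspn. Igfals, which holds insulin-like growth factor in serum, stood at -1.46 ± 0.52, and Acta1, skeletal actin, at -1.08 ± 0.49, both with bl6 sample 1 as the highest sample, at 1.5 and 1.36.

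**Figure D4:**
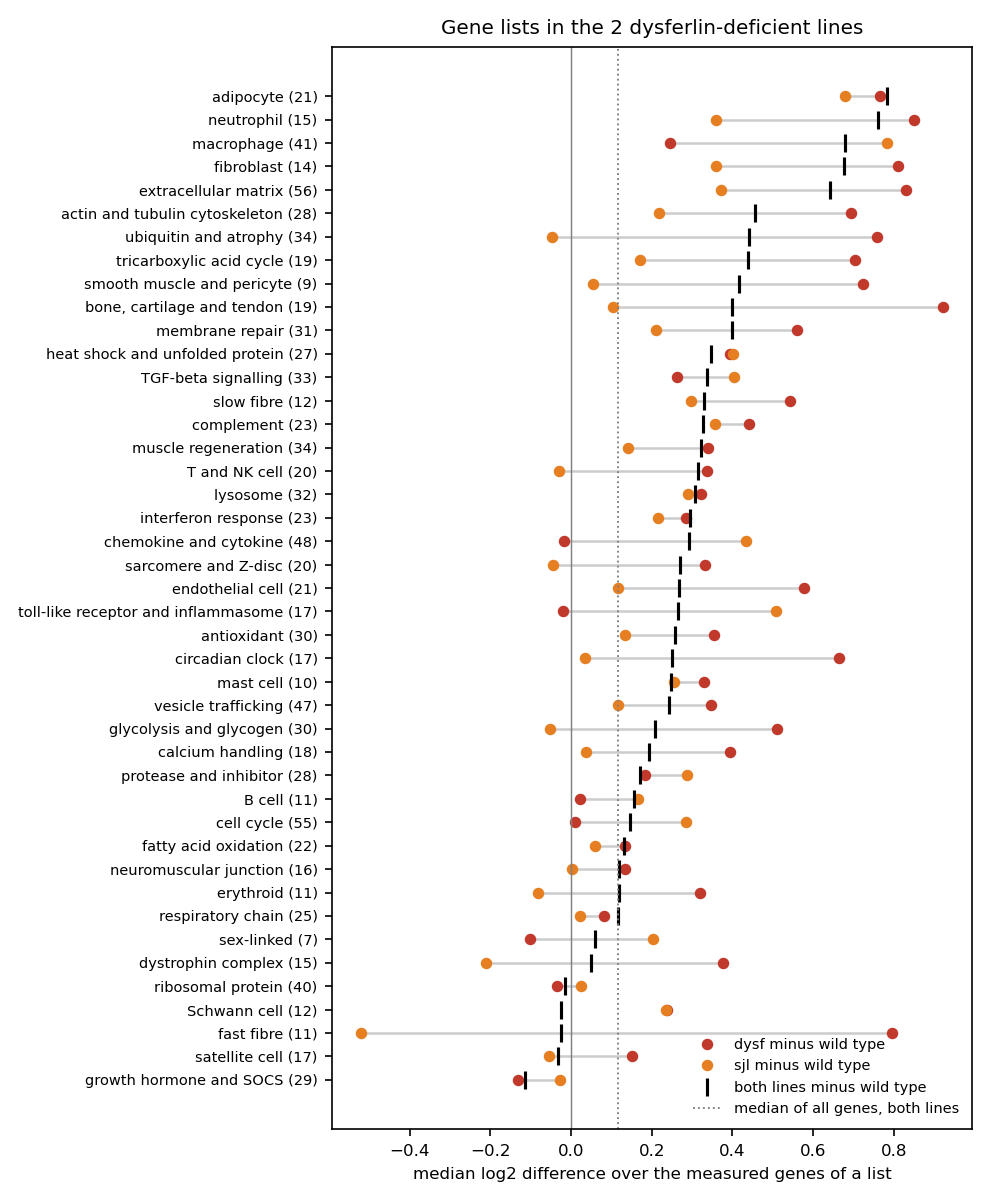
Median log2 difference from wild type (x axis) over the measured genes of 43 gene lists (y axis, number of genes in brackets) in dysf, sjl and both lines together, ordered by the value for both; a list of 4 antigen presentation genes is not drawn. The dotted line is the median of all genes in both lines, 0.116; adipocyte, neutrophil, macrophage, fibroblast and matrix lists lie at the top, and the fast fibre list has its medians furthest apart, at 0.79 and -0.52.

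Against the dystrophin- and sarcoglycan-deficient lines, 8 genes were called, 2 higher in those lines (0.0306%) and 6 lower (0.0917%). Those 7 lines had 14 samples, and this comparison shares the dysf and sjl samples with the one against wild type. Higher in them were Mest, an imprinted gene of growing mesoderm, at 2.39 ± 0.46, and Casq2, the calsequestrin of slow and cardiac muscle, at 1.96 ± 0.33 (limma adjusted p = 0.0397 and 0.0206). Lower in them than in the mean of dysf and sjl were Ucp1 at -4.48 ± 0.81, Csnk1e at -1.71 ± 0.27, Tfb2m at -1.68 ± 0.33, Rbp7, a retinol-binding protein of vessels and fat, at -1.66 ± 0.29, and Ctse at -1.61 (limma adjusted p = 0.0241, 0.0189, 0.0414, 0.0218 and 0.0241). Pfkl, the liver form of phosphofructokinase, was the remaining one, at -1.63 (limma adjusted p = 0.0397). Csnk1e over wild type ranged from 0.81 to 1.24 in the 6 lines named above, below 2.42 in dysf and 2.94 in sjl. In sspn, which is outside this comparison, Csnk1e stood at 1.79. Not every called gene separated each line from the others. Over wild type Ctse ranged from -0.21 to 2.80 in the 6 named lines, with 3.32 in dysf and 1.37 in sjl, and Ucp1 from -2.40 to 2.92, with 4.07 and 2.79. Tfb2m ranged from -0.10 to 0.57, with 0.31 in dysf inside that range and 3.48 in sjl. Rbp7 ranged from -0.41 to 1.34, with 1.51 in dysf and 1.95 in sjl, but stood higher still in hDMD, at 2.61. S100a9 did not pass, at -0.32 ± 0.37 (limma adjusted p = 0.881): over wild type it ranged from 0.50 to 6.49 in the 6 named lines, with 5.36 in dysf and 2.14 in sjl inside that range. The 41 macrophage genes had a median of 0.75 in those lines relative to dysferlin deficiency, with 14 higher and 1 lower at an unadjusted p under 0.05 and 0 called (3.78% and 4.66% of all genes). The 21 adipocyte genes had a median of -0.73, with 0 higher and 10 lower and 1 called, Ucp1. The membrane repair genes had 0 past the unadjusted p and a median of -0.02. The count of 8 was 0 without sjl sample 2, sgcd sample 2 or a sample of the line that is only pooled, 1 without bl6 sample 1, either dysf sample or sspn sample 1, 2 without mdx3cv sample 1, and 3 without mdx3cv sample 2, either sgcb2 sample or sspn sample 2. It was 5 without sgcb sample 2 or sgcd sample 1, 17 without mdx sample 2, 18 without sgca sample 1, 21 without sgcb sample 1, 23 without sjl sample 1 and 25 without sgca sample 2. Among the 26 fits Csnk1e kept its call in 22, Casq2 in 18, Ucp1 and Rbp7 in 15, Ctse in 11, Mest and Pfkl in 9 and Tfb2m in 8. The largest adjusted p lay between 0.136 and 0.335, without sjl sample 2 for all of these but Tfb2m, for which it was without a pooled-only sample, and Ctse, for which it was without dysf sample 2.

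**Figure D5:**
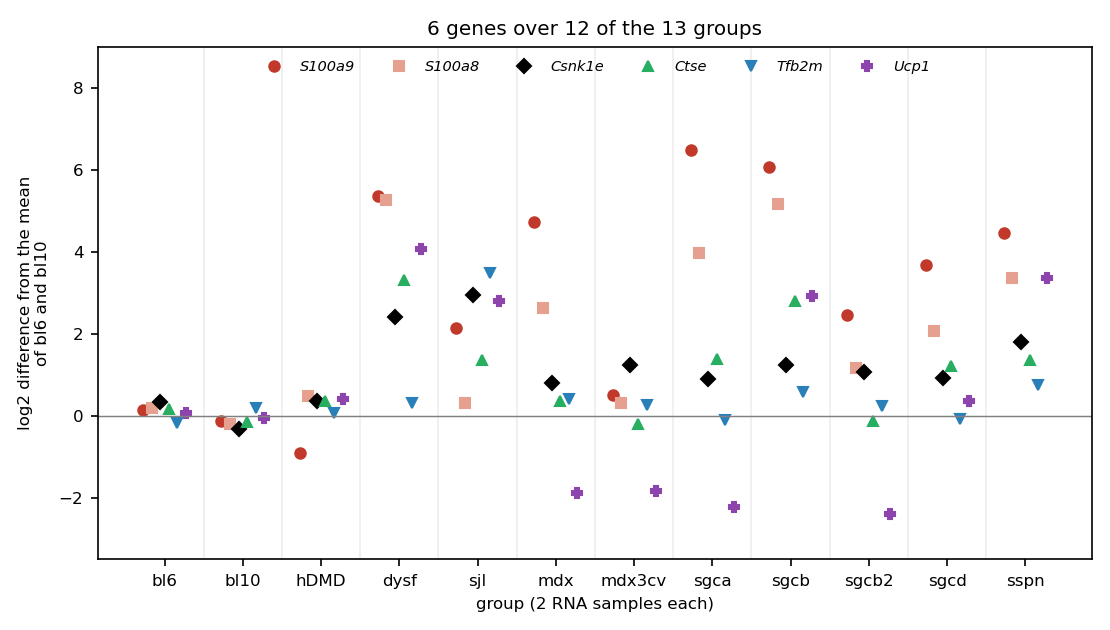
Log2 difference from the mean of bl6 and bl10 (y axis) of 6 genes in 12 of the 13 groups (x axis, 2 RNA samples each, group values of the fit without error bars). Csnk1e is highest in sjl and dysf, Tfb2m stands apart in sjl, S100a9 is high in dysf, sgca, sgcb, mdx and sspn, and Ucp1 is above 2 in dysf, sjl, sgcb and sspn.

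Against hDMD the dysferlin-deficient lines had 162 higher (2.48%) and 13 lower called genes (0.199%), with the same 4 dysferlin-deficient samples as in the comparison with wild type. S100a9 stood at 4.66 ± 0.49, Csnk1e at 2.32 ± 0.35 and Ctse at 2.00 (limma adjusted p = 3.88e-05, 0.00136 and 0.00883). The next largest were Ccl2, a chemokine for monocytes, at 4.63 ± 0.94, Fkbp3, an immunophilin of the nucleus, at 4.33 ± 0.77, and Fabp4 at 4.27 ± 0.75 (limma adjusted p = 0.0134, 0.00587 and 0.00505). Against wild type these 3 did not pass, at 1.74, 1.51 and 1.85 (limma adjusted p = 0.64, 0.614 and 0.467). Relative to wild type hDMD itself stood at -2.89 for Ccl2, -2.81 for Fkbp3 and -2.42 for Fabp4. On the lower side Cish led, at -2.86 ± 0.67, followed by Foxl1, a forkhead gene, at -1.92 ± 0.46, Usp10, a deubiquitinase, at -1.83 ± 0.48, and Tbrg4, a mitochondrial RNA gene, at -1.82 ± 0.42 (limma adjusted p = 0.0275, 0.0311, 0.0447 and 0.0235). For Foxl1, Usp10 and Tbrg4 it was hDMD that stood away from wild type, at 1.67, 1.84 and 1.76. In the same order dysf stood at -0.43, 0.20 and 0.01 and sjl at -0.07, -0.18 and -0.13. Among the lists, 9 of 56 matrix genes, 5 of 41 macrophage genes, 5 of 12 slow fibre genes, 4 of 15 neutrophil genes and 2 of 31 membrane repair genes were called higher and 0 lower. This count moved widely as well: 175 genes became 6 without dysf sample 2, 31 without hDMD sample 1 and 544 without hDMD sample 2. It was 76 without sspn sample 1, 82 without sgcb2 sample 2, 88 without sgcb2 sample 1, 90 without sgcd sample 1, 101 without sjl sample 1, 103 without mdx3cv sample 2, 105 without bl10 sample 2, 109 without sgcb sample 2 or sgcd sample 2, 273 without sgca sample 1, 276 without bl6 sample 1 or sjl sample 2, 304 without mdx sample 1 and 312 without mdx3cv sample 1. S100a9 kept its call in all 26 fits, Csnk1e in 24 (adjusted p = 0.0707 without dysf sample 2 and 0.06 without hDMD sample 1) and Ctse in 23 (0.144 without dysf sample 2, 0.169 without hDMD sample 2 and 0.0634 without sjl sample 2). Ccl2, Fabp4 and Fkbp3 kept theirs in 24, Tbrg4 in 22, Cish in 20, Foxl1 in 17 and Usp10 in 8. The largest adjusted p of the last 7 lay between 0.395 and 0.718, without hDMD sample 1 for Ccl2, Fabp4, Fkbp3 and Cish and without dysf sample 2 for Tbrg4, Foxl1 and Usp10.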

How the data were processed

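Total RNA of 26 samples was compared on 26 arrays. The authors deposited 1 natural log (ln) ratio per spot with no unit stated in the labels; the unit was read from steps between repeated low values, which fitted a generalized natural log on the 20 of 26 arrays with at least 7 steps. This scale understates changes of dim spots. Scanner, dyes, normalization and centring are not given in the sources used here. The design had assumed log2, so values were divided by 0.6931. Of 16416 rows, 13662 paired with 1 gene and were averaged to 6540 genes, 6370 of them with 2 rows; precision is limited by the number of arrays.

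The fit in R 4.3.3 and limma 3.58.1 had group and dye terms, a random effect of RNA sample (variance ratio 0.207 of the residual) and empirical Bayes moderation. On 5 simulated sets of 6540 genes, with 200 changed each, the comparison with wild type recovered 1.49% of 1.5-fold, 19.7% of 2-fold and 83% of 4-fold changes. There were 14 false calls among 359. These sets held far more calls than the 3 of the data, which eases the adjusted threshold. The lines dysf and sjl were also made alike in them, so the shares do not measure recovery in the data. The groups, gene lists and rules were chosen with earlier results of these data known. Named genes are the 15 largest called in each direction for both lines, 5 for each line and for dysf against sjl, 4 elsewhere, all membrane repair genes, and up to 4 of each list by p; others, such as Ctse and Pfkl beside the other dystrophic lines and further list members (Ltf, Mpo, Elane, Mmp8, Actn3, Tpm1, Myoz1, Tnni2, Tnnc2, Casq1, Cd68, Cidea, Chad, Dpt, Lamc1, Cdkn1c, Dmd, Utrn), were chosen after their values were seen. Replicate numbers gave no common pairing of the samples, so no block was used. Correlations of same-numbered samples ran from -0.42 to 0.043 in the 4 groups (median -0.156). Over all 13 groups they ran from -0.796 to 0.663 (median -0.034), so some groups were strongly related. Alternatives were array centring and scaling, no random effect, array weights, row medians, rows that correlate at 0.5 or more, a replicate block, each wild type group alone and each sample left out.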

Additional observations from a re-analysis of the deposited data

Results flagged for a closer look

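The dysf and sjl lines, compared with the same wild type samples, differed from each other in 8 of the named genes by the limma test of dysf minus sjl over all 6540 genes. On the log2 scale dysf minus sjl was 4.94 for S100a8, 4.51 for Pttg1, 3.83 for Ngp, 3.05 for Ibsp, 2.89 for Camp, 2.00 for Rab6a, -2.47 for Zfp458 and -3.17 for Tfb2m. The adjusted p was 0.0121 for S100a8, Ngp and Pttg1, 0.0187 for Rab6a and Zfp458, and 0.0255 for Ibsp, Camp and Tfb2m. In each of these genes both dysf samples lay on the same side of both sjl samples. The genes were chosen by the test of these same samples, so that is no separate support. Outliers were not sought, as every group had 2 samples.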

How the results depend on the processing

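Over 50 gene results, 9 of them added after seeing the data, and 1700 values under alternatives, the direction held in all but 1, Dysf in sjl without sjl sample 1 (without single samples it ran from -0.37 to 2.14). Most of these genes were named for large called differences, so a kept direction was likely beforehand. Only 1233 of the 1700 values stayed on the same side of the adjusted threshold. Of called genes, the comparison of both lines with wild type had 3, and 1 with arrays centred and scaled alike, 8 without the random effect, 5 with array weights and 7 with bl6 as control. For dysf, 7 became 3 with scaling, 14 without the random effect and 16 with array weights. For sjl, 16 became 10 with centring, 5 with scaling, 37 without the random effect, 10 over genes whose rows correlate, 40 with bl6 as control and 2 with bl10. Centring gave 7 higher and 3 lower in sjl, against 13 and 3. For dysf against sjl, 10 became 6 with scaling, 22 without the random effect, 61 with array weights and 3 with a replicate block. For the other dystrophic lines, 8 became 5 with array weights. For hDMD, 175 became 93 with scaling and 349 without the random effect. For bl10 against bl6, examined after seeing the data, 1 became 2 with scaling and 117 with array weights. The cause of these shifts was not tested. The block moved no other count by over 1.5 times. Counts without 1 sample ran from 2 to 16 for both lines, 1 to 17 for dysf, 2 to 26 for sjl, 0 to 32 for dysf against sjl, 0 to 25 for the other dystrophic lines, 6 to 544 for hDMD and 0 to 2 for bl10 against bl6, where it was 0 without any of the 4 wild type samples or mdx3cv sample 2 and 2 without either mdx sample. Row medians gave the same counts, as most genes have 2 rows. Reading the values as log2 left the 3 calls, but it rescales all values alike, cannot change a p-value and is no test of them.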

Other observations

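Further gene groups held no called gene in the comparison of both lines with wild type. Of 34 genes of the ubiquitin and atrophy list 26 lay above 0 with a median of 0.44, which was 0.76 in dysf and -0.05 in sjl, and 2 passed an unadjusted p under 0.05, beside 7.2% higher and 1.57% lower of all genes. These were Psmc1, a proteasome ATPase, with 0.51, 1.11, 1.24 and 0.49 in the lines against at most 0.13 in wild type, and Nedd4, a ubiquitin ligase, at 0.88 ± 0.34 (limma adjusted p = 0.49 and 0.439). Of 27 genes of the heat shock and unfolded protein list 5 were higher and 1 lower at an unadjusted p under 0.05, with a median of 0.35. Hsp90b1, a chaperone of the endoplasmic reticulum, stood at 1.41 ± 0.43 and Hspd1, the mitochondrial chaperonin, at 1.27 ± 0.41 (limma adjusted p = 0.311 and 0.346), and in both bl6 sample 1 was the lowest sample, at -1.80 and -1.94.

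Of 20 T and NK cell genes 15 lay above 0 with a median of 0.32, beside 0.116 for all genes. At an unadjusted p under 0.05, 2 were higher and 1 lower, not far from the shares of all genes, 7.2% and 1.57%. Cd8b1, a chain of the CD8 co-receptor, and Cd6 stood at 0.76 and 0.83, and Zap70, a kinase of the T cell receptor, at -0.70 (limma adjusted p = 0.425, 0.506 and 0.498). Of 11 B cell genes 0 passed the unadjusted p. Of 23 interferon response genes 17 lay above 0 and 3 passed the unadjusted p, again not far from the 7.2% higher and 1.57% lower of all genes. Gbp3 and Mx1, an antiviral GTPase, stood at 1.15 and 0.81, and Ifit2, an RNA-binding antiviral protein, at -0.95 (limma adjusted p = 0.349, 0.36 and 0.346). Stat3, which carries cytokine signals to the nucleus, stood at 1.97 and 1.43 in the sjl samples, 0.50 and 0.49 in the dysf samples and at most 0.21 in wild type, without overlap (1.10 ± 0.37, limma adjusted p = 0.352).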
